A study of Mus musculus with 4 samples.

Results

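Small nucleolar RNAs and small Cajal body RNAs are short non-coding RNAs of the nucleus, and here their levels were followed on the 4 arrays of a study of mouse liver. The members are the genes whose probe sets carry 1 platform symbol beginning with Snord, Snora or Scarna. Of 78 such symbols, 70 were kept because their mean level over the 4 arrays reached 3.47 on the log2 scale, the 40th percentile of all genes. They are 43 of 47 Snord genes, 23 of 26 Snora genes and 4 of 5 Scarna genes, among 13308 genes kept of 22180 on the array. The members were thus selected on their mean level, with no use of diet or genotype. Just inside the cutoff lay Snora78 with a mean of 3.49, Snord43 with 3.50 and Snord88a with 3.50, and just outside it Snora19 with 3.44, Scarna8 with 3.37 and Snora75 with 3.37. The 8 not kept had diet differences in LKO from -0.29 to 0.40. The family itself was taken up with earlier results of these arrays known, so the counts below describe the arrays and are not independent evidence of a direction.

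The study compared 4 groups of C57Bl6 mice in total liver RNA. Wild-type mice carried MyD88 lox/lox alleles without Cre, and the liver knockout (LKO) carried the same alleles with ALB Cre, in which the albumin promoter drives Cre recombinase in hepatocytes, so that other liver cells keep MyD88, an adaptor protein of Toll-like receptor signalling. Each genotype ate a control diet with 9.4% fat (CT) or a high-fat diet with 60% fat (HFD), and the mice were 16 weeks old. RNA of 4 to 5 mice per group, chosen for RNA quality, was pooled, and 1 array was hybridised per pool, so WT-CT, LKO-CT, WT-HFD and LKO-HFD have 1 value each. A difference between 2 arrays therefore has no replicate check, and no error can be given for it. The number of arrays limits the precision of every value.

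Box C/D RNAs, whose symbols begin with Snord, guide 2′-O-methylation of ribosomal and spliceosomal RNA, and box H/ACA RNAs, whose symbols begin with Snora, guide the conversion of uridine to pseudouridine. Scarna genes encode related guide RNAs that act in Cajal bodies on spliceosomal RNA. In mammals most of them lie in introns of host genes and are trimmed out of the spliced intron, so the RNA level depends on the host's transcription, on processing and on the stability of the finished particle.

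Many snoRNA hosts are known to begin transcription inside a pyrimidine tract, the TOP sequence of ribosomal protein genes. The stretches below are 60 bases around the annotated start of hosts described further on, from RefSeq on the mouse build GRCm38.p6, written 5′ to 3′ on the gene's strand. The 8 hosts were chosen as hosts of members whose values are given below, with both annotated starts of Gas5. Capitals mark a pyrimidine run, here a C followed by at least 4 more C or T that begins within 10 bases of the start. A run was found for Snhg12 at chr4:132308648-132308707 on the plus strand, 2410006H16Rik at chr11:62602847-62602906 on the plus strand, Rps12 at chr10:23787180-23787239 on the minus strand, and the downstream start of Gas5 at chr1:161035136-161035195 on the plus strand. No run was found for the upstream start of Gas5 at chr1:161034571-161034630 on the plus strand, Nop58 at chr1:59684976-59685035 on the plus strand, Rps3a1 at chr3:86142639-86142698 on the minus strand, Rpl4 at chr9:64173357-64173416 on the plus strand, or Snhg1 at chr19:8723457-8723516 on the plus strand.
Snhg12: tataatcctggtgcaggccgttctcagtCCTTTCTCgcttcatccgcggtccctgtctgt
2410006H16Rik: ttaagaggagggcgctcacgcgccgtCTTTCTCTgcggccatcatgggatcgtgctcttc
Rps12: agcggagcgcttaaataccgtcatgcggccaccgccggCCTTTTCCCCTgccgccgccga
Gas5 downstream start: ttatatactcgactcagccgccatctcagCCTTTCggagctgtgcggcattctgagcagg
Gas5 upstream start: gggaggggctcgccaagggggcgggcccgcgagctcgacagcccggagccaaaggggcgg
Nop58: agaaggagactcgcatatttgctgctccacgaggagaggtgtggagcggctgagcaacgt
Rps3a1: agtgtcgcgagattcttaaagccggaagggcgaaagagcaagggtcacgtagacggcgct
Rpl4: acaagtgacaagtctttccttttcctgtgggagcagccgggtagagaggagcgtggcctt
Snhg1: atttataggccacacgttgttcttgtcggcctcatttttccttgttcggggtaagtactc
Of 59 host genes, 44 had an entry in the promoter table, and 22 of these (50%) held a run on the gene's strand, against 32.6% of 27025 genes in the table. On the opposite strand 11 hosts (25%) held one, against 36.9% of all genes. Pyrimidine stretches outside the rule, such as those printed for Rpl4 and Snhg1, were not counted. The match is of letters only. It does not show where transcription starts in these livers.

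Depth does not apply to arrays, and the values of all probe sets ran from 2.42 to 13.7 on the log2 scale. The 4 arrays correlated with each other at 0.985 to 0.990 over all probe sets. Myd88, the targeted gene, read 6.10 on WT-CT, 5.91 on LKO-CT, 6.44 on WT-HFD and 6.23 on LKO-HFD, lower in LKO on each diet by a difference of -0.19 and of -0.21. Hepatocyte markers (5 of 6 measured, among them Alb and Ttr) had the same mean level on every array, 12.91 to 12.92, which matches the labelled tissue. Exocrine pancreas markers (Cpa1, Clps, Cela1, Ctrb1) averaged 5.96 on WT-CT, 8.16 on LKO-CT, 8.18 on WT-HFD and 9.29 on LKO-HFD, and skeletal muscle markers 4.34, 4.16, 5.55 and 4.03 in that order. All 4 pancreas markers and all 3 muscle markers were measured.

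The guide RNAs were lowest in livers of knockout mice on the high-fat diet. The median level of the 70 members was 7.77 on WT-CT, 7.57 on LKO-CT, 7.48 on WT-HFD and 6.78 on LKO-HFD, while the median of all genes kept stayed between 4.97 and 5.02. The arrays thus stood in the order WT-CT, LKO-CT, WT-HFD, LKO-HFD, with the largest step at the last. In 58 of 70 members (82.9%) the LKO-HFD array held the lowest of the 4 values, against 26.6% of all genes kept. In 40 members (57.1%) WT-CT held the highest, against 28.1% of all genes. The complete order from WT-CT down to LKO-HFD was met by 31 members (44.3%) and by 6.99% of all genes. That order was read from the medians of these same members, so the count describes them and is not a test. In pooled bulk liver, fewer cells of a type and less RNA per cell cannot be told apart. The exocrine pancreas markers ran in the reverse order, lowest on WT-CT and highest on LKO-HFD; their part in the result was not tested.

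**Figure D1:**
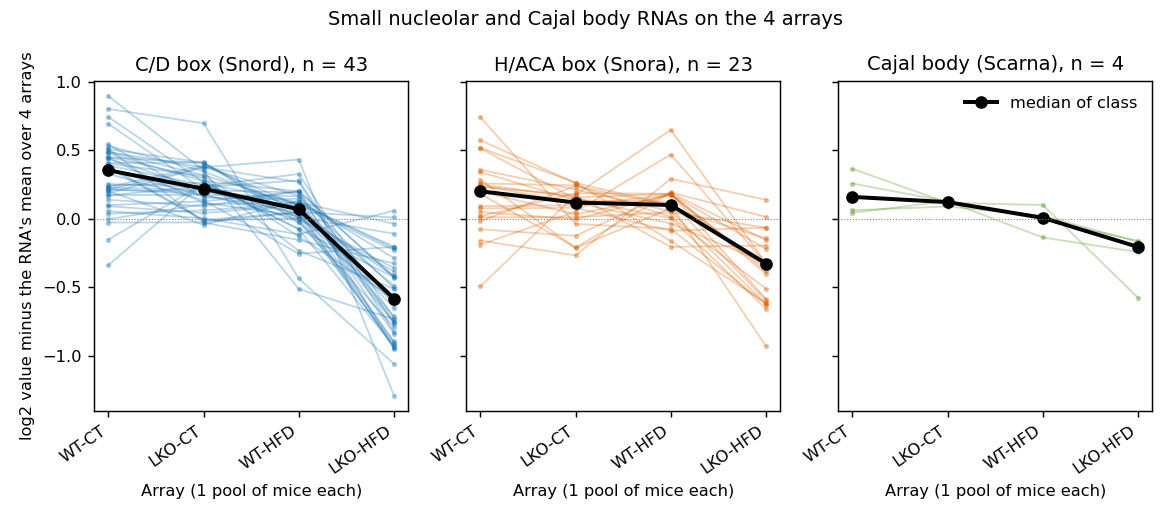
Value of each member on the 4 arrays (log2, minus that RNA's own mean over the arrays), by class, each thin line 1 gene and the thick black line the class median, with 1 pooled array per group. Lines run downward to LKO-HFD, which was the lowest array for 38 of 43 Snord, 16 of 23 Snora and 4 of 4 Scarna genes.

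**Figure D2:**
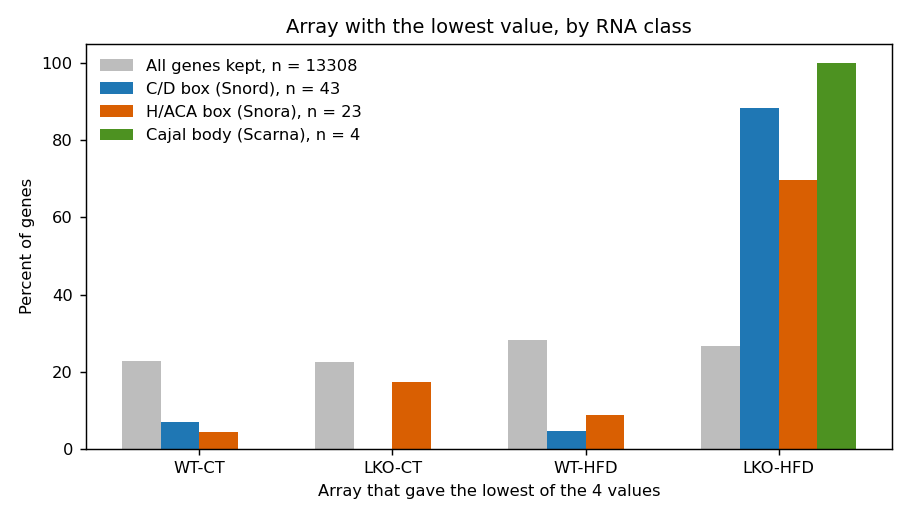
Percent of genes whose lowest of the 4 values was on each array, for all genes kept (grey) and the Snord, Snora and Scarna classes. The bar for LKO-HFD reached 88.4% in Snord, 69.6% in Snora and 100% in Scarna (4 genes), against 26.6% of all genes.

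The low LKO-HFD values were seen in each class, with differences in size. The Snord median went from 8.15 on WT-CT through 7.95 on LKO-CT and 7.73 on WT-HFD to 6.96 on LKO-HFD, and 38 of 43 Snord genes (88.4%) were lowest on LKO-HFD. The Snora medians were 7.44, 6.99, 7.14 and 6.40 on the same arrays, with 16 of 23 genes (69.6%) lowest on LKO-HFD. Here LKO-CT, not WT-HFD, had the second lowest median. The 4 Scarna medians, 8.04, 7.93, 7.89 and 7.58, spanned the narrowest range, and all 4 genes were lowest on LKO-HFD. Differences between the classes were not tested.

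Over the 70 members together, high-fat feeding went with lower guide RNA levels in both genotypes, and with a wider gap in LKO. In wild-type mice, HFD minus CT had a median of -0.21 over the members and of -0.03 over all genes kept; 49 of 70 members (70.0%) were lower and 21 higher, while 55.0% of all genes were lower. In LKO mice the median was -0.68 (1.60-fold lower) against 0.01 over all genes, and 64 members (91.4%) were lower and 6 higher, while 47.7% of all genes were lower. These 2 diet differences use different arrays, and 47 members (67.1%) were lower on HFD in both, against 29.0% of all genes. Over the 70 members the diet differences in WT and LKO correlated at Pearson's r 0.478 and Spearman's rho 0.494, against 0.241 and 0.188 over all genes. This is a description across genes that share the same arrays, not replicates.

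At least 2-fold lower on HFD in WT were 2 members, Snord83b and Snord70, against 0.564% of all genes, and 1 member, Snora68, was at least 2-fold higher, against 0.488%. In LKO, 15 members (21.4%) were at least 2-fold lower on HFD, against 0.286% of all genes, and none was 2-fold higher. These 15 were 14 Snord genes and Snora16a, and they made up 39.5% of the 38 genes with such a difference among the 13308 kept. By class the LKO diet median was -0.83 in Snord (41 of 43 lower), -0.46 in Snora (19 of 23 lower) and -0.33 in Scarna (4 of 4 lower). In WT it was -0.28 in Snord (32 of 43 lower), -0.07 in Snora (13 of 23) and -0.16 in Scarna (4 of 4). The Snora share lower in WT, 56.5%, was near the 55.0% of all genes.

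Box C/D RNAs had the widest diet differences. Snord70, a C/D guide in an intron of Nop58, read 8.28 on WT-CT, 8.17 on LKO-CT, 7.04 on WT-HFD and 6.42 on LKO-HFD. Both HFD arrays lay more than 1 log2 unit below both CT arrays, with differences of -1.24 in WT (2.36-fold) and -1.76 in LKO (3.38-fold). Snord83b, which lies in the ribosomal protein gene Rpl3, read 6.01, 5.47, 4.61 and 4.38 in the same array order. Its CT and HFD arrays did not overlap either, with differences of -1.41 in WT and -1.09 in LKO. Snord111, inside the splicing factor gene Sf3b3, read 7.10, 6.62, 6.28 and 5.43. It went down at each step of the array order, with diet differences of -0.82 and -1.20.

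A second set of C/D RNAs differed mainly on the LKO-HFD array. Snord42b, inside the ribosomal protein gene Rpl23a, read 7.26 on WT-CT, 7.14 on LKO-CT, 7.20 on WT-HFD and 5.48 on LKO-HFD. The first 3 arrays lay within 0.2 of each other, and the fourth was apart from WT-HFD by -1.72. Snord69, inside Gnl3, which encodes a nucleolar GTP-binding protein, read 9.74, 9.93, 9.83 and 8.73. Snord49b, in the non-coding host 2410006H16Rik, read 10.10, 10.07, 10.12 and 9.08. Snord13, which has no containing gene in the RefSeq table and is known as U13, read 8.38, 8.45, 8.54 and 7.48. In these 3 genes as well the WT-CT, LKO-CT and WT-HFD arrays were close and LKO-HFD was low, by -1.09, -1.04 and -1.06 from WT-HFD.

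Between these patterns lay genes with a small step to WT-HFD and a larger one to LKO-HFD. Snord16a, inside Rpl4, read 10.71, 10.51, 10.43 and 9.29. Snord47, inside Gas5, a non-coding host of many C/D RNAs, read 10.12, 10.12, 9.69 and 8.92. Snord58b, inside Rpl17, read 8.69, 8.65, 8.28 and 7.34. For each of these 3 genes LKO-HFD was the lowest array and the diet difference in LKO was -1.22, -1.20 and -1.30. Snord1b, inside Snhg16, read 8.15, 7.96, 7.69 and 6.67, and Snord65, inside 2410006H16Rik, read 6.90, 6.80, 6.39 and 5.47. Both descended in the complete array order. The other 2-fold lower C/D genes in LKO were Snord73b (-1.22), Snord15a (-1.15), Snord35a (-1.13) and Snord82 (-1.10). Of the rest, Snord23, Snord61, Snord66, Snord71, Snord87 and Snord110 were also lowest on LKO-HFD, with differences from -0.99 to -0.68.

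The C/D probe sets with the strongest signal were lowest on LKO-HFD too, with ranges that differed. Snord104 read 12.19, 12.22, 12.29 and 11.67, and Snord99 read 12.09, 12.03, 12.09 and 11.76, each in the order WT-CT, LKO-CT, WT-HFD, LKO-HFD. On both, the arrays other than LKO-HFD were within 0.1 of one another. Snord22, in the non-coding host Snhg1, read 11.16, 10.94, 10.84 and 9.96, and Snord55 read 10.77, 10.72, 10.84 and 10.20. Snord118, known as U8 and needed for maturation of the large ribosomal subunit RNAs, read 4.68, 4.29, 4.34 and 3.88. It lay near the low end of the scale and was again lowest on LKO-HFD. Snord53 and Snord123 were the C/D genes that were not lower on HFD than on CT within LKO, with diet differences of 0.06 and 0.04.

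Among the H/ACA RNAs, 1 gene had a 2-fold difference in LKO. Snora16a, in the non-coding host Snhg12, read 9.0 on WT-CT, 8.69 on LKO-CT, 8.53 on WT-HFD and 7.50 on LKO-HFD, with a diet difference of -1.19 in LKO. Snora15, inside the chaperonin gene Cct6a, read 9.62, 9.36, 8.94 and 8.48, so both HFD arrays lay below both CT arrays. Snora30, inside Srcap, read 7.77, 6.99, 6.95 and 6.40. WT-CT stood above the other arrays there, and its genotype difference on the control diet, -0.78, was the lowest of all members. Snora33, inside Rps12, read 12.06, 12.04, 11.81 and 11.29, and Snora34, inside Kansl2, read 10.96, 10.82, 10.66 and 9.98. Both descended in the complete array order. A second, dimmer probe set of Snora33 read 4.41, 4.41, 4.24 and 4.21. Snora21, Snora23, Snora28, Snora62 and Snora69 were also lowest on LKO-HFD, with LKO diet differences from -0.80 to -0.22.

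Some H/ACA RNAs took another course. Snora68 read 6.0 on WT-CT, 6.67 on LKO-CT, 7.14 on WT-HFD and 6.16 on LKO-HFD. It was higher on HFD in WT by 1.14 and lower in LKO, with a difference of -0.50, and WT-CT was its lowest array. Snora74a, inside Snhg4, read 4.18, 4.42, 4.84 and 4.04, highest on WT-HFD. Snora2b, inside Kansl2 like Snora34, read 3.88, 3.77, 4.33 and 4.18, and both HFD arrays were above both CT arrays. Snora2b and Snora74a had weak signals, with means of 4.04 and 4.37. The 4 H/ACA genes not lower on HFD in LKO were Snora2b (0.40), Snora78 (0.14), Snora31 (0.07) and Snora47 (0.05).

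By the probe sets used, the 4 Scarna genes were each lower on HFD in both genotypes, and none reached 2-fold. Scarna17 read 9.11 on WT-CT, 9.19 on LKO-CT, 9.06 on WT-HFD and 8.90 on LKO-HFD, and its second probe set, not used for the counts, read 8.40, 8.45, 8.65 and 8.34, higher on HFD in WT by 0.25. Scarna2 read 8.38, 8.41, 8.34 and 8.15. The values of each of these probe sets lay close together, and LKO-HFD was the lowest on each. Scarna6, inside the autophagy gene Atg16l1, read 7.71, 7.46, 7.44 and 6.77, and had the widest range of the class, with a diet difference of -0.69 in LKO. Scarna10, inside the condensin gene Ncapd2, read 7.50, 7.37, 7.11 and 7.0, and differed by diet to a like extent in WT (-0.39) and LKO (-0.37).

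**Figure D3:**
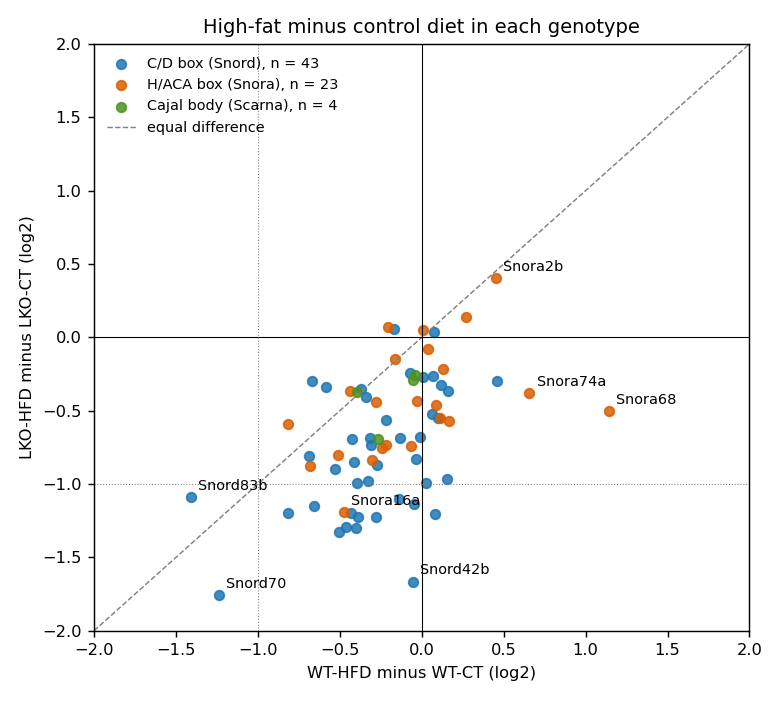
Diet difference (log2, HFD minus CT) in LKO against that in WT, 1 point per member coloured by class, with solid lines at 0, dotted lines at -1 (2-fold lower) and a dashed line of equal difference. Most points lie below the dashed line: Snord42b was at -1.66 in LKO and -0.06 in WT, and Snora68 at -0.50 and 1.14.

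The genotype difference was small on the control diet and larger on the high-fat diet. On the control diet, LKO minus WT had a median of -0.09 over the members and -0.02 over all genes; 48 members (68.6%) were lower, 21 higher and Snora7a equal, while 53.3% of all genes were lower. No member reached 2-fold lower, against 0.158% of all genes. On HFD the median was -0.57 (1.48-fold lower) against 0.02, with 66 members (94.3%) lower and 4 higher, while 45.9% of all genes were lower. On HFD 8 members were at least 2-fold lower, against 0.165% of all genes, and they made up 36.4% of the 22 such genes among those kept. They were Snord42b, Snord16a, Snord69, Snord13, Snord49b, Snora16a, Snord1b and Snord73b. The 4 higher members, Snora20, Snora41, Snord53 and Snord92, differed by 0.01 to 0.17. By class the HFD genotype medians were -0.62 in Snord, -0.52 in Snora and -0.17 in Scarna. This comparison shares the LKO-HFD array with the diet comparison in LKO. The genotype differences on the 2 diets, which share no array, had r 0.03 and rho 0.07 over the 70 members.

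The LKO diet difference minus the WT diet difference had a median of -0.44 over the members and 0.04 over all genes. Its sign was negative in 59 of 70 members (84.3%), against 44.1% of all genes. It was negative in 38 of 43 Snord genes, 18 of 23 Snora genes and 3 of 4 Scarna genes. Without the LKO-HFD array, WT-CT was the highest of the remaining 3 in 41 members (all genes: 38.2%) and WT-HFD the lowest in 42 (60.0%; all genes: 39.7%). With 1 array per group the difference of differences has no error of its own.

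An additive model of diet and genotype was fitted with limma over all 13308 genes, with 1 residual degree of freedom. That residual is the diet-by-genotype difference itself, moderated by a prior of 4.63 degrees of freedom from all genes, so the p-values hold no measure of the spread between livers of a group. After Benjamini-Hochberg adjustment limma called no member for diet; at unadjusted p under 0.05 it had 36 members lower and 1 higher, while 4.97% of all genes were lower. Snord70 (effect -1.5 ± 0.16 SE, limma adjusted p = 0.163) and Snord83b (effect -1.25 ± 0.14 SE, limma adjusted p = 0.165) had the smallest adjusted p of the members. After cyclic loess normalisation of the arrays, limma called these 2 genes, each with an adjusted p of 0.045. For genotype limma called no member, at a smallest adjusted p of 0.975, also after cyclic loess; at unadjusted p under 0.05 it had 23 members lower and none higher, against 1.87% of all genes lower. The additive fit gives 1 effect for both genotypes, which differs from the single-array differences above where these were unequal.

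The size of the LKO diet difference went with signal strength. Among 16 members with a mean below 5 the median was -0.30, and none was 2-fold lower, with 12 lower at all. Among 25 members between 5 and 8 it was -0.80, with 8 at 2-fold, among them Snord70, Snord42b and Snord83b. Among 29 members at 8 or more it was -0.75, with 7 at 2-fold, and all 29 were lower. The shares of all genes at 2-fold in these ranges were 0.06%, 0.421% and 0.742%. Snord88a, at 3.16, 3.76, 3.61 and 3.46, was among the dim probe sets, and WT-CT was its lowest array. Over 70 members, mean level and the LKO diet difference had r -0.43 and rho -0.44, a description across probe sets of the same arrays.

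**Figure D4:**
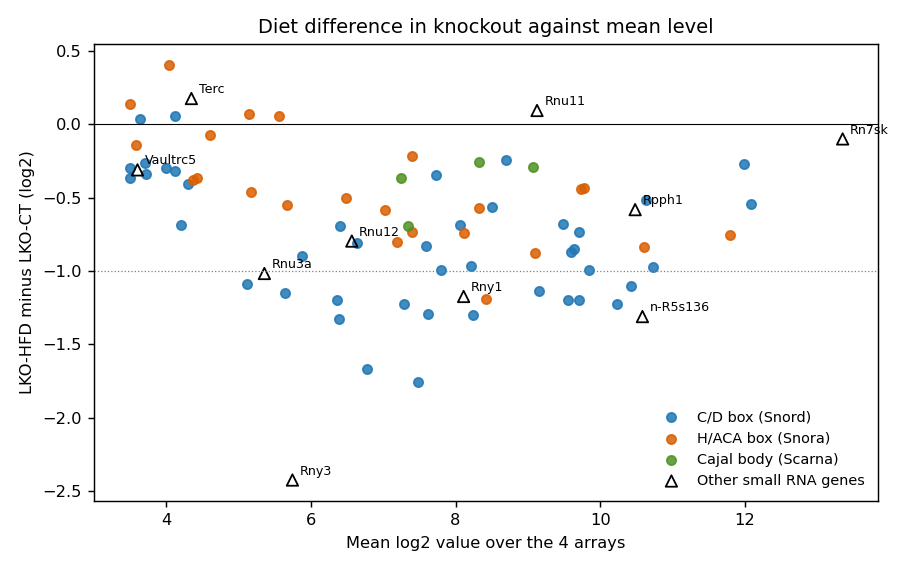
Diet difference in LKO (log2, HFD minus CT) against mean value over the 4 arrays (log2), 1 filled point per member by class and open triangles for 10 other small RNA genes, with a dotted line at -1. All 29 members at a mean of 8 or more lie below 0, and the 16 members below 5 have a median of -0.30.

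The RNAs are short: annotated lengths in RefSeq had a median of 68 nt in Snord (48 to 221), 122 nt in Snora (61 to 205) and 66.5 nt in Scarna (61 to 248). Some spans, such as the 61 nt given for Scarna2, cover part of the RNA only. Length and the LKO diet difference had r 0.23 and rho 0.25 over 70 members, and Pearson's r of 0.20 within Snord and -0.11 within Snora. Shorter RNAs thus had somewhat more negative LKO diet differences over all classes, which differ in length, but not within Snora. With the HFD genotype difference, length had r 0.01 and rho 0.02 over 70 members. Within Snord and Snora Pearson's r was 0.05 and -0.30 for that comparison.

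As a group, the host genes did not show the low LKO-HFD values of their RNAs. By RefSeq spans, 66 of 70 members lay inside another gene, and 43 such genes holding 55 members were measured; strand could not be compared. Over these 43 hosts the median diet difference in LKO was -0.02, and the median genotype difference on HFD was 0.06. No host reached 2-fold in any of the 4 comparisons, and limma called no host for diet or genotype after adjustment. LKO-HFD was the lowest array for 12 of 43 hosts, near the share of 26.6% of all genes kept. The member was below its host in 46 of 55 pairs for the LKO diet difference and in 48 of 55 for the HFD genotype difference. Member and host differences had r -0.04 and 0.03 over these pairs, which share hosts and arrays.

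Nop58, a core protein of the C/D particle and host of Snord70 and Snord11, read 6.78 on WT-CT, 7.02 on LKO-CT, 6.78 on WT-HFD and 7.28 on LKO-HFD. The host was highest on the array on which both its RNAs were lowest, and the LKO diet difference was 0.26 for Nop58, -1.76 for Snord70 and -0.81 for Snord11. Its start, printed above, held no pyrimidine run. Rpl23a, host of Snord42b, read 9.40, 9.52, 9.08 and 9.19, and its LKO-HFD array was not below WT-HFD, as that of Snord42b was. Rps3a1 read 9.28, 9.22, 8.66 and 8.93, with a diet difference of -0.29 in LKO, against -0.90 for Snord73a and -1.22 for Snord73b. In other pairs the host was the lower. Rpsa had a diet difference of -0.77 in LKO against -0.22 for its Snora62, and Tpt1 one of -0.67 against 0.07 for Snora31. On HFD the genotype difference of Rpl3 was -0.60, against -0.22 for Snord83b. Ribosomal protein genes such as Rps3a1 have many near-identical copies in the genome, so their probe sets are uncertain. The probe set numbers of Rps3a1, Rpl23a, Rpsa, Rpl3 and Tpt1 lie far from those of their RNAs, and that of Nop58 lies near. Whether the probe sets of those hosts read the gene that holds the RNA was not tested, so the pairs with the lower host are uncertain too.

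RNAs of 1 host differed among themselves. Snhg12, with a pyrimidine run of 8 bases at its start, read 3.80, 3.82, 4.02 and 3.65, near the cutoff, and holds Snord99 (LKO diet difference -0.27), Snora61 (-0.46), Snora44 (-0.55) and Snora16a (-1.19). 2410006H16Rik, also with a run of 8 bases, read 6.40, 6.41, 6.30 and 6.08, and holds Snord49a (-0.68), Snord49b (-0.99) and Snord65 (-1.33). The host's own difference was -0.33, smaller than those of its RNAs. In Snhg3 (4.90, 4.76, 4.76 and 4.83) the paralogs Snora73a and Snora73b were alike, at -0.73 and -0.74. Their sequences are near-identical, so each probe set may read both.

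**Figure D5:**
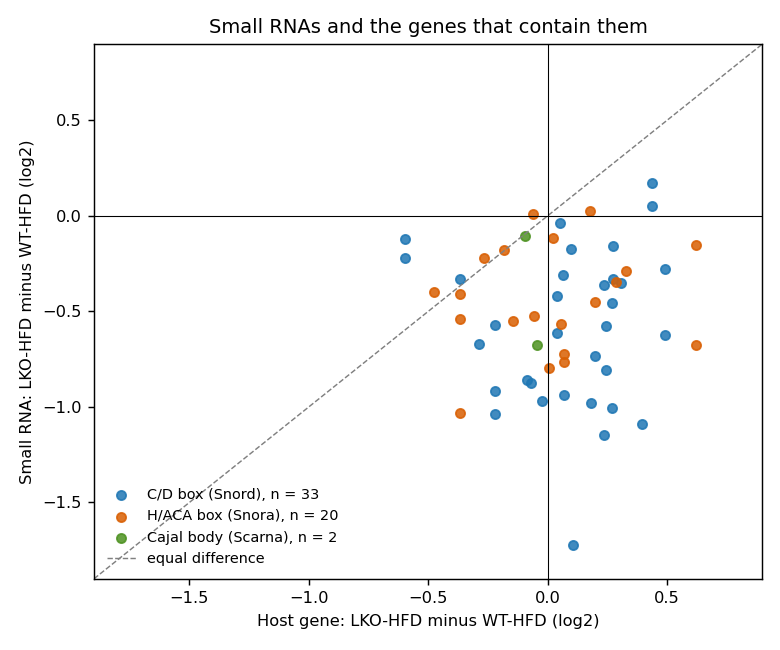
Genotype difference on HFD (log2, LKO-HFD minus WT-HFD) of each member against that of the gene that contains it, 55 pairs over 43 hosts, with a dashed line of equal difference. Hosts lie between -0.60 and 0.62, members reach down to -1.72, and 48 of 55 points lie below the dashed line.

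The proteins that carry and mature these RNAs had no 2-fold difference, and limma called none after adjustment. Among all 13308 genes kept, 6943 were higher on HFD in LKO and 7182 were higher in LKO on HFD. Of the C/D core proteins, Nop56, Nop58 and Snu13 (3 of 4 listed) were measured. They had a median diet difference in LKO of 0.01 and a median genotype difference on HFD of 0.25, with 3 of 3 higher in LKO on HFD. The H/ACA core proteins Dkc1, the pseudouridine synthase, Nop10, Nhp2 and Gar1 had medians of 0.12 and 0.16, with 4 of 4 higher in LKO on HFD. Dkc1 read 5.41 on WT-CT, 5.46 on LKO-CT, 5.33 on WT-HFD and 5.73 on LKO-HFD. Of 13 assembly and transport factors measured, among them Nufip1 and the cap methylase Tgs1, the medians were 0.07 and 0.10. Of 18 processing and decay factors listed, 16 were kept. Dbr1 fell below the level filter and Exosc4 had no probe set with 1 symbol. The 16 kept, among them the exosome nuclease Dis3 and the exonuclease Xrn1, had medians of 0.16 and 0.22. Of these, 13 of 16 were higher in each comparison and 12 of 16 in both, which share the LKO-HFD array. The share of all genes higher in both was not counted. Xrn1 read 6.51, 6.39, 6.55 and 6.91, highest on LKO-HFD. The 20 ribosome synthesis genes, such as Ncl and Npm1, had medians of -0.00 and 0.08, with 10 lower and 10 higher on HFD in LKO.

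Other small non-coding RNAs of 10 genes were partly alike. Rnu3a, the C/D RNA U3 under another symbol, read 6.06 on WT-CT, 5.68 on LKO-CT, 5.02 on WT-HFD and 4.66 on LKO-HFD. The Y RNA Rny3 read 6.74, 6.61, 5.45 and 4.18, a diet difference of -2.42 in LKO, wider than that of any member. The 5S ribosomal RNA gene n-R5s136 read 10.72, 10.94, 11.05 and 9.63, low on LKO-HFD alone, though 5S genes are repeated copies that 1 probe set cannot tell apart. In contrast, the 7SK RNA Rn7sk read 13.40, 13.40, 13.32 and 13.30, and the minor spliceosomal Rnu11 read 9.04, 9.04, 9.29 and 9.14. These last 2 RNAs differed little between arrays, although Rn7sk lies near the top of the scale. Rnu12, also minor spliceosomal, read 6.72, 6.87, 6.60 and 6.08, lowest on LKO-HFD. The LKO diet differences of Rny1, Rpph1, Vaultrc5 and Terc were -1.17, -0.58, -0.31 and 0.17. In all, 7 of 10 were lowest on LKO-HFD, against 26.6% of all genes kept. On HFD in LKO 4 of 10 were at least 2-fold lower, against 0.286% of all genes. The 138 microRNA genes had a median diet difference in LKO of -0.14, with 92 lower and 2 at least 2-fold lower. Of all genes, 47.7% were lower and 0.286% at least 2-fold lower.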

How the data were processed

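Total liver RNA was extracted with Tripure, pooled by group and labelled with the Ambion WT expression kit from 100 ng, per the labels' protocols. The authors deposited log2 values; the submitters' processing notes name RMA and Affymetrix Expression Console. RMA includes quantile normalisation, which gives all arrays nearly the same distribution and so removes any shift shared by all genes; for the version and genome build the sources used here give nothing. Of 41345 probe sets, 23521 have 1 symbol, 1814 have several and 16010 none in the platform annotation. The probe set with the highest mean was taken per symbol, and genes at or above 3.47 were kept. Differences were subtracted on the log2 scale. limma 3.58.1 in R 4.3.3 fitted diet plus genotype, with Benjamini-Hochberg adjustment at 0.05. The fit was run on simulated data with the same spread for all genes and additive effects. This checks the code and cannot show how the fit performs on these arrays. Any member could be named; full values went to the highest levels and the lowest and highest differences. Members, gene lists and rules were chosen with earlier results of these data known. Hosts came from RefSeq gene spans of the mouse reference table. Probe sets with several symbols, Snord116 among them, were not members. Alternatives were other normalisations, probe set rules, level filters, a fold of 1.5 and a limma trend.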

Additional observations from a re-analysis of the deposited data

Results flagged for a closer look

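In 5 members the diet difference had opposite signs in the genotypes, higher on HFD in WT and lower in LKO, and the 2 diet differences were at least 2-fold apart. These 5 are 7.14% of the members, and 0.924% of all genes kept had opposite signs and such a gap; opposite signs of any size were seen in 27.1% of members and 44.7% of all genes. The LKO diet difference minus the WT diet difference was -1.64 for Snora68, -1.28 for Snord69, -1.12 for Snord13, -1.04 for Snora74a and -1.02 for Snord49b. Only Snora68 had a WT diet difference above 1 in size, at 1.14; Snord49b had 0.03 and Snord69 had 0.08. With 1 array per group these differences were not tested.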

How the results depend on the processing

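No paired analysis was possible because each group has 1 array, and for the same reason no replicate could be left out. Of 185 values under alternatives, 173 stayed within 0.1 log2 units or 1.5 times a count, 12 moved further and 0 changed sign. At a fold of 1.5 in place of 2, the members lower on HFD numbered 8 in WT and 37 in LKO, those lower in LKO 1 on the control diet and 32 on HFD, and those higher 2 on HFD in WT and 2 in LKO on the control diet; in that order 2.52%, 1.72%, 0.864%, 1.01%, 1.68% and 0.902% of all genes were called. The median diet difference in LKO was -0.56 with no level filter and -0.57 with probe sets of several symbols included, where the HFD genotype median was -0.45. The last alternative and differences relative to the median gene were added after seeing the data. Cyclic loess gave 2 members for diet by limma; the cause was not tested. Over all alternatives the median diet difference ran from -0.25 to -0.16 in WT and from -0.73 to -0.56 in LKO, and the genotype difference from -0.10 to -0.06 on the control diet and from -0.62 to -0.45 on HFD. At a fold of 2, members lower on HFD in LKO numbered 15 to 18 over the alternatives, against 15 in the main setting. Members lower in LKO on HFD numbered 6 with array medians aligned and 12 with cyclic loess, against 8. Which members reach 2-fold thus depends on the normalisation. Dim probe sets near the background limit what could be seen for 16 members.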

Other observations

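Probe sets with several symbols were left out of the members. The 16 Snord116 probe sets carried identical values with a mean of 3.70, and their diet difference was -0.60 in LKO and -0.24 in WT. Of the other 30, 25 reached the cutoff. Over these the median diet difference in LKO was -0.43, with 20 lower, 3 at least 2-fold lower, and 19 lowest on LKO-HFD. The shares of all genes kept were 47.7%, 0.286% and 26.6% in that order.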
